A study of Mus musculus with 25 samples.

Results

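The 36 genes described here encode the proteins that bring glucose into the cell, split it to pyruvate, exchange lactate, admit pyruvate to the mitochondrion and store or release glycogen. They were taken by name, and the rule uses no measured value, but the list was drawn up with earlier results of these data known. All 36 are among the 20870 genes of the deposited table. They fall into 8 roles: 3 glucose transporters, 2 hexokinases, 6 genes of upper glycolysis, 8 of lower glycolysis, 4 of lactate and pyruvate exchange, 5 of pyruvate entry, 3 regulators of phosphofructokinase and 5 of glycogen.

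The samples were mouse sinoatrial node (SAN), where the heartbeat starts, and right atrium (RA), the working muscle beside it. Both were outlined by eye on frozen sections and cut out with a laser, and the RNA was amplified before sequencing. There were 3 SAN libraries and 3 RA libraries at each of 3 ages, written E14.5 for 14.5 days of gestation and P4 and P14 for 4 and 14 days after birth, all from mice of mixed background that carried Hcn4-GFP. A separate set of SAN libraries came from E12.5 embryos with Hcn4-GFP and Isl1 fl/fl, all given tamoxifen at E10.5: 3 also carried CAG-Cre/Esr1, a Cre recombinase under the broadly active CAG promoter that tamoxifen switches on (CrePos), and 4 did not (CreNeg). Recombination was thus not limited to the node. The labels do not tie libraries to single animals, so a p-value reflects only how far libraries of 1 group vary, which may be technical.

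Glucose crosses the cell membrane through carriers of the Slc2a family and is trapped by hexokinase, after which the glycolytic enzymes turn it into pyruvate. Pyruvate is either reduced to lactate and exported or oxidised by the pyruvate dehydrogenase complex, which the Pdk kinases inhibit. Several steps have sister genes, one used widely in growing tissue and one used mainly in striated muscle. The fetal heart depends largely on glucose and lactate, and after birth the heart turns to fatty acids as its main fuel.

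Recovered read totals ran from 5101711 to 17997497 in the 18 tissue and stage libraries and from 45298052 to 88020474 in the E12.5 set of 7. Levels are given in CPM, the deposited scaled reads divided by 1 constant, and the 2 sets were not compared with each other because mitochondrial ribosomal RNA mt-Rnr2 took 21.4 to 34.1% of the total in the Isl1 set and was listed at 0 in the 18. The markers of the captured tissues lay on the side of their labels in all 18 libraries. Hcn4, the pacemaker channel, ran from 1141 to 3748 CPM in SAN and from 4.43 to 31.1 CPM in RA, and Tbx3 from 215 to 858 CPM in SAN and from 1.66 to 29.4 CPM in RA. Nppa, an atrial hormone gene, ran up to 34.4 CPM in SAN and from 320.3 to 1453 CPM in RA, and Bmp10 from 0.123 to 6.87 CPM in SAN and from 77.4 to 1354 CPM in RA. SAN E14.5 replicate 1 held 829 CPM of Myl2, a ventricular myosin gene, against at most 21.2 CPM in the other 8 SAN libraries.

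Between E14.5 and P14 several widely expressed glycolytic genes fell in both tissues, while the muscle glucose carrier and the muscle phosphofructokinase rose. Other muscle forms did not rise in both tissues. Hk2, Eno3 and Pygm were called higher in RA only, and Aldoa was called in neither tissue. Pgam2 was called lower in SAN and Gys1 lower in RA. In SAN at P14, 5 of the 36 genes were higher and 18 were lower than at E14.5. Of all 17568 genes tested, 24.3% were called, 9.74% higher and 14.5% lower. In RA, 9 of the 36 were higher and 11 lower, where 22.7% of all genes were called, 5.99% higher and 16.7% lower. A call is an adjusted p under 0.05 from limma, a linear model fitted on log2(CPM + 1) across all genes. The median log2 difference of the 36 genes was −0.71 in SAN and −0.31 in RA, beside −0.18 in SAN and −0.37 in RA over all genes tested. In bulk tissue, fewer cells of a type and less RNA per cell cannot be told apart.

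The genes called lower in both tissues were 9: Slc2a1, Gpi1, Pfkp, Aldoc, Gapdh, Pgam1, Eno1, Pdk1 and Pdk3. The 5 called higher in both were Slc2a4, Pfkm, Pdk4, Pdha1 and Pygb, which include the insulin-responsive glucose carrier, the muscle phosphofructokinase and the catalytic subunit of pyruvate dehydrogenase. How many of all genes were called the same way in both tissues was not counted. These 9 and 5 genes are therefore a description and cannot be set against a share of all genes. The split in RA depended on the scaling. With TMM factors computed anew 12 members were higher and 6 lower, and with equal upper quartiles 12 and 7. With each library scaled to its sarcomere genes 4 were higher and 19 lower. The median of all genes in RA moved to −0.06, −0.11 and −0.85 in that order. Over all genes in RA, these settings called 1678 higher and 1526 lower, 1557 and 1684, and 671 and 7263. The fit above called 1052 higher and 2936 lower. The move towards lower calls in RA under sarcomere scaling was thus seen over all genes too. In SAN the splits of the members were 5 higher and 14 lower, 5 and 16, and 4 and 19. The medians of all genes were −0.05, −0.07 and −0.29. Over all genes in SAN, the calls were 2109 higher and 2067 lower, 2032 and 2121, and 1420 and 2967.

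**Figure D1:**
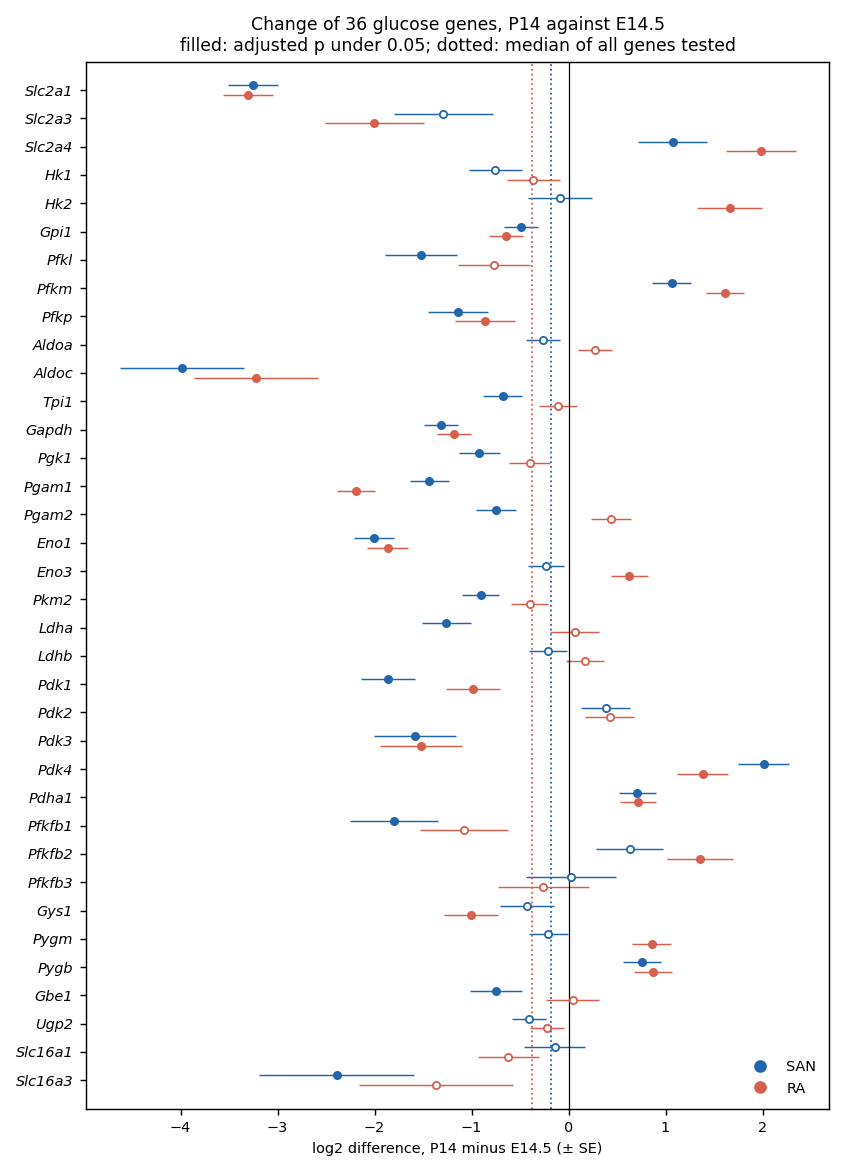
Log2 difference of each of the 36 genes at P14 relative to E14.5 (x axis, with SE), in SAN (blue) and RA (red), with 3 libraries per group. Filled points are called (adjusted p under 0.05) and dotted lines mark the median of all genes tested. Slc2a1, Aldoc, Pgam1 and Eno1 lie far to the left in both tissues, while Hk2, Pgam2, Eno3, Ldha and Pygm lie further left in SAN than in RA.

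Set against RA, SAN was higher for Hk1, Hk2, Pgam1, Eno3, Pkm2, Pygb and Pygm and lower for Slc16a1, Pfkfb1, Pfkfb2, Pdk1 and Gbe1 when averaged over the 3 stages. Averaged over the 3 stages, 7 of the 36 genes were higher in SAN and 5 lower, where 11.5% of all genes were called, 6.11% higher and 5.36% lower. At E14.5, 5 were higher and 1 lower, with 5.33% of all genes called, 2.24% higher and 3.09% lower. At P4, 5 were higher and 2 lower, with 5.96% called, 2.97% higher and 2.99% lower. At P14 only 1, Pgam1, was called, with 4.55% of all genes called, 3.21% higher and 1.34% lower. No member was called in SAN against RA at all 3 stages. The median difference of the members was 0.23 at E14.5, 0.19 at P4 and −0.10 at P14, beside −0.07, −0.07 and 0.10 over all genes tested.

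These contrasts also moved with the scaling. At P14, recomputed TMM factors and equal upper quartiles each gave 1 gene higher and 2 lower in SAN. For the average over stages, sarcomere scaling gave 3 genes higher and 7 lower in SAN, and at E14.5 it left 1 higher and 1 lower. The 16 sarcomere genes summed to 126489 to 136285 CPM in RA at P14 and to 71130 to 112948 CPM in the other 15 libraries. At P4, 4 members were called without RA P4 replicate 3 in place of 7, and at E14.5, 3 members were called in place of 6 when any of SAN E14.5 replicates 1, 2 or 3 or RA E14.5 replicates 1 or 2 was left out. The calls over all genes under these settings are not given here. A shift shared by all genes therefore cannot be told apart from one of the members.

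**Figure D2:**
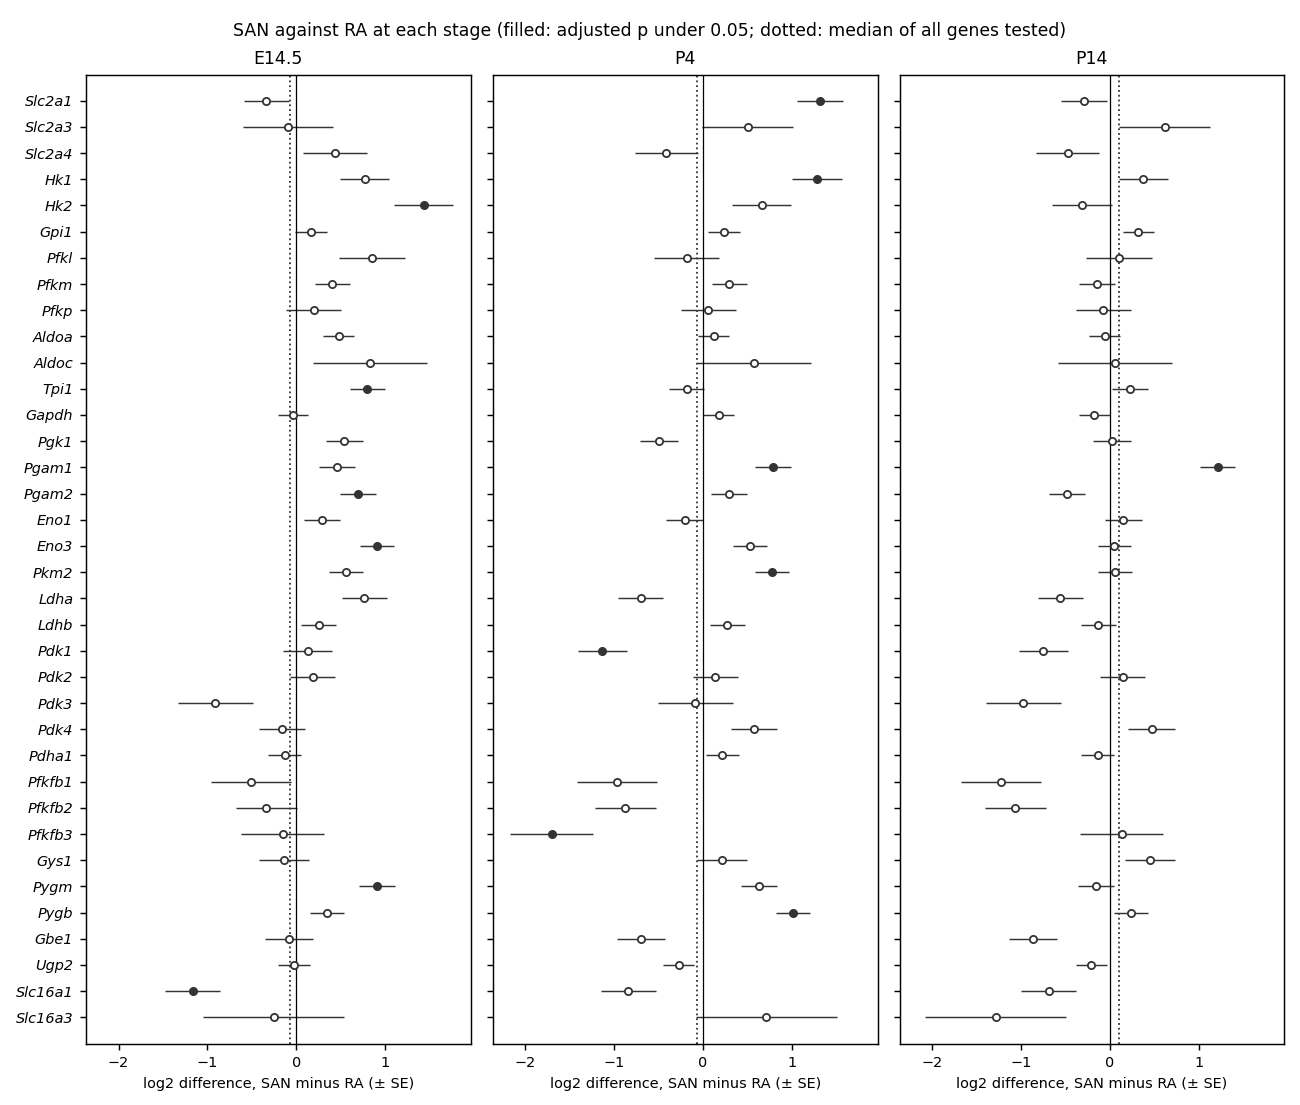
Log2 difference of each of the 36 genes in SAN relative to RA (x axis, with SE) at E14.5, P4 and P14, with 3 libraries per tissue and stage. Filled points are called and dotted lines mark the median of all genes tested. Pgam1 is the gene furthest to the right at P14, and Slc16a1 lies left of 0 at each stage.

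Of the glucose carriers, Slc2a1 fell and Slc2a4 rose after birth in both tissues. Slc2a1 encodes GLUT1, the carrier that works without insulin. In SAN, Slc2a1 stood at 182, 173 and 252 CPM at E14.5, 63.5, 67.95 and 67.2 CPM at P4 and 19.9, 20.1 and 20.01 CPM at P14. In RA it stood at 216, 262 and 284 CPM at E14.5, 26.04, 35.7 and 18.7 CPM at P4 and 17.8, 33.2 and 25.2 CPM at P14. In RA the P14 libraries overlapped with those at P4, while in SAN each later stage lay below the one before with no overlap, and at P4 all SAN libraries lay above all RA libraries. At P14 against E14.5 the log2 difference was −3.26 ± 0.26 in SAN and −3.30 ± 0.26 in RA (limma, adjusted p = 9.53e-09 and 8.27e-09). At P4, SAN exceeded RA by 1.32 ± 0.26 (limma, adjusted p = 0.00185), whereas at E14.5 and P14 the difference was −0.34 and −0.29 with no call. From P4 to P14 it fell in SAN by a log2 difference of −1.68 ± 0.26 (limma, adjusted p = 0.000441) and in RA it had −0.07, not called.

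Slc2a4 encodes GLUT4, the carrier that insulin and contraction bring to the surface of muscle cells. SAN levels of Slc2a4 were 23.2, 22.1 and 41.3 CPM at E14.5, 47.4, 44.3 and 28.2 CPM at P4 and 54.3, 102 and 37.6 CPM at P14. RA levels of Slc2a4 were 20.98, 22.8 and 17.3 CPM at E14.5, 49.4, 81.3 and 35.3 CPM at P4 and 106, 67.4 and 80.2 CPM at P14. The RA libraries at P14 all lay above those at E14.5, and the SAN libraries at P14 overlapped with those at E14.5 in 1 library at each stage. The log2 difference at P14 was 1.07 ± 0.36 in SAN and 1.98 ± 0.36 in RA (limma, adjusted p = 0.0319 and 0.000318). The SAN call was lost without SAN E14.5 replicates 1 or 2 or SAN P14 replicates 1 or 2 (adjusted p 0.0551 to 0.195) and under sarcomere scaling (adjusted p = 0.0535). Slc2a3 encodes GLUT3, the high-affinity carrier of neurons and white cells, and had 22.5, 17.8 and 23.3 CPM at E14.5, 4.77, 11.1 and 17.5 CPM at P4 and 6.06, 9.996 and 8.403 CPM at P14 in SAN. RA held 12.3, 17.1 and 53.1 CPM at E14.5, 5.49, 7.23 and 7.53 CPM at P4 and 4.24, 3.39 and 7.83 CPM at P14 of Slc2a3. It fell in RA by a log2 difference of −2.002 ± 0.51 (limma, adjusted p = 0.00628), a call lost without RA E14.5 replicate 3 (adjusted p = 0.0645), the library with the highest value, and in SAN the difference was −1.29 ± 0.51 (limma, adjusted p = 0.0688).

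**Figure D3:**
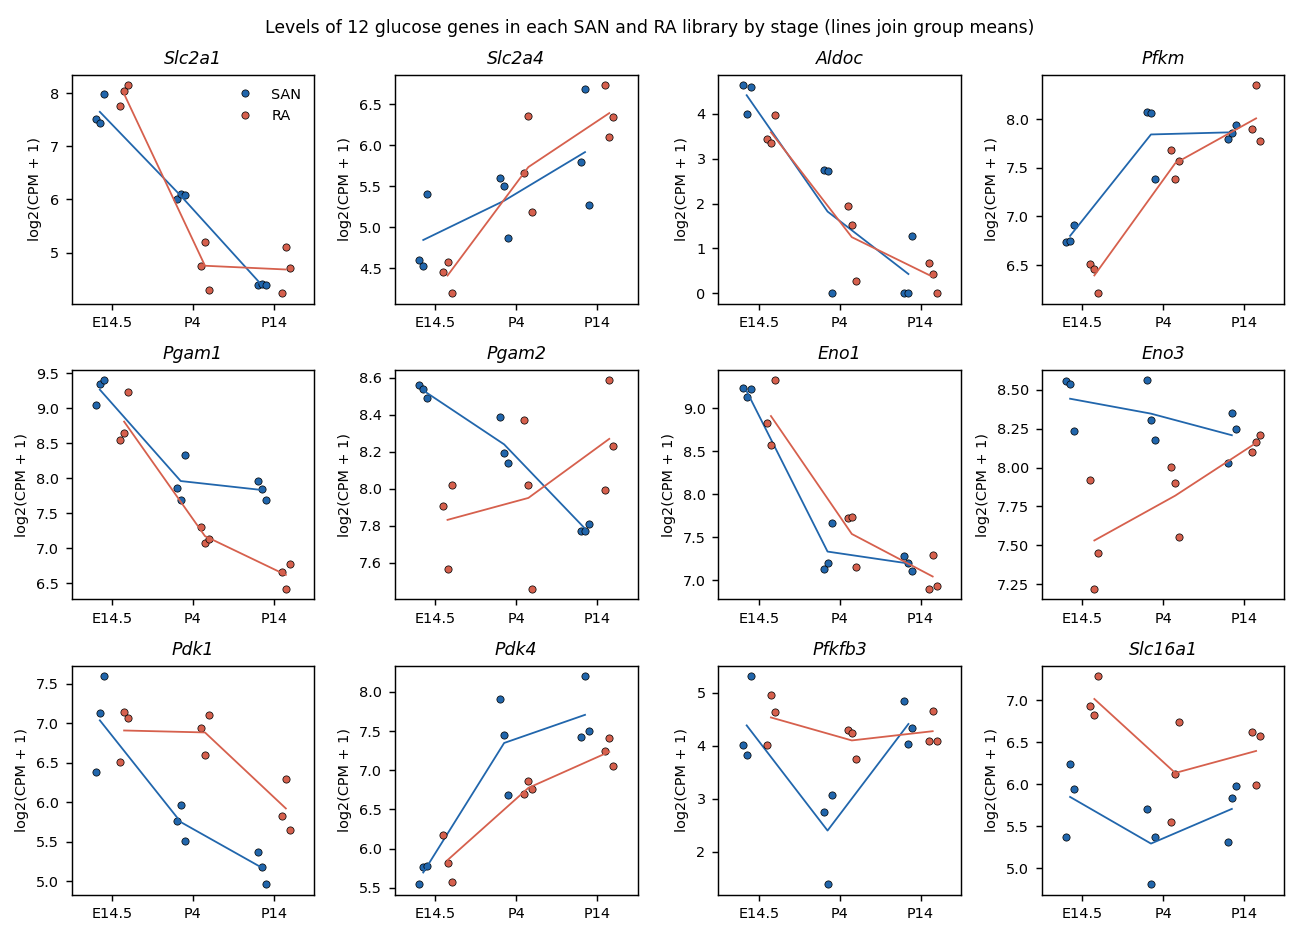
Level of 12 of the genes in each library, as log2(CPM + 1) (y axis), at E14.5, P4 and P14 (x axis), for SAN (blue, left) and RA (red, right). Points are libraries, 3 per group, and lines join group means. Slc2a1, Aldoc, Pgam1 and Eno1 fall with stage in both tissues, Slc2a4, Pfkm and Pdk4 rise, and Pgam2 goes down in SAN, while in RA its stages overlap.

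Hexokinase traps glucose as its phosphate, and Hk1 is the form used in most tissues while Hk2 is the insulin-responsive form of muscle and fat. Hk1 in SAN had 192, 127 and 187 CPM at E14.5, 174, 139.9 and 119 CPM at P4 and 90.1, 100.1 and 104 CPM at P14. Hk1 in RA had 91.3, 109.6 and 91.03 CPM at E14.5, 80.9, 75.8 and 31.6 CPM at P4 and 91.4, 65.1 and 71.5 CPM at P14. It was higher in SAN averaged over stages by 0.81 ± 0.16 (limma, adjusted p = 0.00123) and at P4 by 1.28 ± 0.28 (limma, adjusted p = 0.00482), a call lost when those 2 groups were fitted alone (adjusted p = 0.078). RA P4 replicate 3 held the lowest Hk1 value of the 18. Hk2 in SAN had 52.2, 59.9 and 49.2 CPM at E14.5, 61.9, 83.8 and 30.4 CPM at P4 and 47.5, 58.4 and 46.02 CPM at P14. RA libraries had 19.1, 20.6 and 17.99 CPM at E14.5, 36.01, 20.6 and 52.1 CPM at P4 and 71.1, 47.8 and 73.1 CPM at P14 of Hk2. The RA libraries at E14.5 all lay below every SAN library, and at P14 the tissues overlapped. SAN exceeded RA at E14.5 by 1.43 ± 0.33 (limma, adjusted p = 0.0102), lost without SAN E14.5 replicate 2 (adjusted p = 0.0564). Hk2 rose in RA at P14 by 1.66 ± 0.33 (limma, adjusted p = 0.000907), while in SAN the difference was −0.09 ± 0.33. The average over stages was 0.59 ± 0.19 (limma, adjusted p = 0.0493), and this call was lost in 22 of 27 alternatives, including when any 1 of 16 of the 18 libraries was left out (adjusted p 0.0552 to 0.114).

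In upper glycolysis the muscle form of phosphofructokinase, the committing enzyme of the pathway, rose in both tissues, the platelet form fell in both and the liver form fell in SAN. Pfkm had 106, 106 and 119 CPM at E14.5, 269, 267 and 166 CPM at P4 and 222, 231 and 245 CPM at P14 in SAN. RA levels of Pfkm were 90.4, 86.8 and 73.03 CPM at E14.5, 205, 166 and 189 CPM at P4 and 237, 326 and 218 CPM at P14. Within each tissue, every library at P4 and P14 exceeded every library at E14.5. The log2 difference at P14 was 1.06 ± 0.20 in SAN and 1.61 ± 0.20 in RA (limma, adjusted p = 0.000432 and 4.78e-06), and at P4 it was already 1.04 in SAN and 1.15 in RA (limma, adjusted p = 0.00181 and 0.000694). Pfkp, the platelet form, had 139.8, 139 and 144 CPM at E14.5, 63.3, 80.8 and 92.4 CPM at P4 and 53.03, 66.6 and 72.2 CPM at P14 in SAN. Pfkp in RA had 112, 165 and 99.7 CPM at E14.5, 109.8, 82.8 and 45.6 CPM at P4 and 53.3, 113 and 49.3 CPM at P14. It was lower at P14 by −1.14 ± 0.31 in SAN and −0.86 ± 0.31 in RA (limma, adjusted p = 0.00938 and 0.0478). In RA the P14 and E14.5 libraries overlapped and the call was lost without RA E14.5 replicates 1 or 2 or RA P14 replicates 1 or 3 (adjusted p 0.0783 to 0.214) and with recomputed TMM factors (adjusted p = 0.288). Pfkl, the liver form, had 85.8, 104 and 122 CPM at E14.5, 50.8, 31.2 and 39.4 CPM at P4 and 57.9, 16.4 and 45.6 CPM at P14 in SAN. RA libraries held 45.1, 44.2 and 90.7 CPM at E14.5, 57.98, 42.4 and 37.7 CPM at P4 and 25.7, 33.4 and 41.05 CPM at P14 of Pfkl. It fell in SAN by −1.52 ± 0.37 (limma, adjusted p = 0.00427), and in RA the difference was −0.77 ± 0.37, not called.

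Aldolase splits the sugar bisphosphate. Aldoc, the brain form, had 24, 14.9 and 23.4 CPM at E14.5, 5.69, 5.61 and 0 CPM at P4 and 0, 0 and 1.44 CPM at P14 in SAN. RA levels of Aldoc were 9.81, 9.21 and 14.8 CPM at E14.5, 2.85, 1.89 and 0.215 CPM at P4 and 0.584, 0.356 and 0 CPM at P14. It was near 0 at P14, where a count of 0 allows up to 0.443 CPM in the shallowest library of that stage. The log2 difference was −3.99 ± 0.64 in SAN and −3.22 ± 0.64 in RA (limma, adjusted p = 8.6e-05 and 0.000815). Because several of these libraries are at 0, these fitted values depend on the pseudocount and are no bound. Aldoa is the muscle form. Aldoa in SAN had 708, 699 and 931 CPM at E14.5, 613, 561 and 633 CPM at P4 and 701, 671 and 567 CPM at P14. Aldoa in RA had 514, 480.4 and 691 CPM at E14.5, 612, 609.9 and 454 CPM at P4 and 609.8, 694 and 710 CPM at P14. Its log2 difference at P14 was −0.26 ± 0.17 in SAN and 0.27 ± 0.17 in RA, with no call in either. In RA it was called higher with recomputed TMM factors, at 0.65 (limma, adjusted p = 0.015), and had −0.28 with sarcomere scaling. Gpi1, the phosphoglucose isomerase, had 436, 452 and 489.9 CPM at E14.5, 357, 371 and 296 CPM at P4 and 312, 349.5 and 321 CPM at P14 in SAN. RA held 402, 370.5 and 458 CPM at E14.5, 339, 298 and 236 CPM at P4 and 314, 205 and 278 CPM at P14 of Gpi1. It was lower at P14 by −0.49 ± 0.18 in SAN and −0.64 ± 0.18 in RA (limma, adjusted p = 0.0478 and 0.011). The SAN call was lost without SAN E14.5 replicates 1, 2 or 3 or SAN P14 replicates 1, 2 or 3 (adjusted p 0.0605 to 0.133) and the RA call without RA E14.5 replicate 3 or RA P14 replicate 2 (adjusted p 0.0531 to 0.0787), and both were lost with recomputed TMM factors (adjusted p = 0.206 in SAN and 0.371 in RA).

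In lower glycolysis, 7 of the 8 genes were lower at P14 than at E14.5 in SAN and 0 were called higher by limma, while in RA 3 were lower and 1 higher. Of all genes tested, 14.5% were lower and 9.74% higher in SAN, and 16.7% lower and 5.99% higher in RA. Both counts of members moved with the scaling, as given below for Pgam2, Tpi1 and Eno3. Gapdh, the dehydrogenase that starts the energy-yielding steps, was the most abundant member. Gapdh had 6190, 6331 and 5853 CPM at E14.5, 2924, 2628 and 3342 CPM at P4 and 2740, 2004 and 2698 CPM at P14 in SAN. Gapdh in RA had 6857, 5269 and 6855 CPM at E14.5, 3077, 2755 and 2101 CPM at P4 and 2991, 2510 and 2841 CPM at P14. The lowest library at E14.5 held 5269 CPM and the highest later one 3342 CPM. The log2 difference at P14 was −1.32 ± 0.17 in SAN and −1.18 ± 0.17 in RA (limma, adjusted p = 9e-06 and 3.46e-05), and SAN and RA were not called different at any stage (limma, adjusted p 0.663 to 0.966).

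Eno1, the widespread enolase, had 602, 562 and 600 CPM at E14.5, 139.7, 146 and 203 CPM at P4 and 154, 146 and 138 CPM at P14 in SAN. RA levels of Eno1 were 454, 382 and 641 CPM at E14.5, 212, 212 and 142 CPM at P4 and 119, 156 and 122 CPM at P14. It fell by −2.003 ± 0.21 in SAN and −1.87 ± 0.21 in RA (limma, adjusted p = 4.53e-07 and 1.28e-06). Eno3 is the muscle enolase. Eno3 in SAN had 375, 371 and 300 CPM at E14.5, 376, 315 and 288 CPM at P4 and 259.8, 325 and 303 CPM at P14. Eno3 in RA had 241, 148 and 174 CPM at E14.5, 256, 238 and 187 CPM at P4 and 274, 286 and 295 CPM at P14. All SAN libraries at E14.5 exceeded all RA libraries at E14.5, and at P14 the tissues overlapped. SAN was higher at E14.5 by 0.91 ± 0.19 (limma, adjusted p = 0.00408) and averaged over stages by 0.50 ± 0.11 (limma, adjusted p = 0.00314), and both calls were lost under sarcomere scaling (adjusted p = 0.0854 and 0.0768). Eno3 rose in RA by 0.63 ± 0.19 (limma, adjusted p = 0.0186), a call lost without RA E14.5 replicates 2 or 3 or RA P14 replicate 3 (adjusted p 0.0561 to 0.111) and under sarcomere scaling (adjusted p = 0.784), and in SAN the difference was −0.23 ± 0.19.

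Phosphoglycerate mutase comes in a pair of forms. Pgam1, the brain form, had 529, 650.5 and 673 CPM at E14.5, 232, 205 and 319.6 CPM at P4 and 248, 229 and 205 CPM at P14 in SAN. RA levels of Pgam1 were 374, 399 and 599.8 CPM at E14.5, 157, 134 and 139 CPM at P4 and 99.6, 84.5 and 109 CPM at P14. It fell in both tissues, by −1.43 ± 0.20 in SAN and −2.19 ± 0.20 in RA (limma, adjusted p = 1.67e-05 and 7.28e-08). At P14 the lowest SAN library held 205 CPM and the highest RA library 109 CPM. SAN exceeded RA by 0.82 ± 0.12 averaged over stages (limma, adjusted p = 2.3e-05) and by 1.21 ± 0.20 at P14 (limma, adjusted p = 0.000512). The call at P4 (0.79 ± 0.20, adjusted p = 0.0169, limma) was lost without RA P4 replicates 2 or 3 or SAN P4 replicate 3 (adjusted p 0.0575 to 0.0792) and under sarcomere scaling (adjusted p = 0.226). At E14.5 the difference was 0.46 ± 0.20, not called.

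Pgam2 is the muscle form of the same enzyme. SAN levels of Pgam2 were 377, 372 and 359 CPM at E14.5, 334, 292 and 281 CPM at P4 and 218, 218 and 223 CPM at P14. RA levels of Pgam2 were 239, 189 and 259 CPM at E14.5, 331, 259 and 175 CPM at P4 and 254, 383 and 299.6 CPM at P14. SAN libraries at P14 all lay below SAN libraries at E14.5, while in RA the stages overlapped. The log2 difference at P14 was −0.75 ± 0.20 in SAN (limma, adjusted p = 0.00902) and 0.44 ± 0.20 in RA, which was not called (adjusted p = 0.125, limma). The SAN call was lost with recomputed TMM factors (limma, adjusted p = 0.0507), edgeR (adjusted p = 0.0777) and DESeq2 (adjusted p = 0.0757). The RA difference was called higher under these 3 settings, at 0.81, 0.82 and 0.82 (adjusted p = 0.0101, 0.0137 and 0.00345), and with equal upper quartiles at 0.76 (limma, adjusted p = 0.0143), while sarcomere scaling gave −0.12. At E14.5 SAN exceeded RA by 0.70 ± 0.20 (limma, adjusted p = 0.0436), a call lost without RA E14.5 replicates 1 or 2 or SAN E14.5 replicates 1, 2 or 3 (adjusted p 0.0838 to 0.224). This call was also lost with sarcomere scaling (limma, adjusted p = 0.379), equal upper quartiles (limma, adjusted p = 0.0542) and edgeR (adjusted p = 0.0668). No filter (limma, adjusted p = 0.0539) and the replicate block (limma, adjusted p = 0.055) lost it too.

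Between E14.5 and P14 the other genes of lower glycolysis fell in SAN and were not called in RA. Tpi1, triose phosphate isomerase, had 251, 254 and 276 CPM at E14.5, 102, 129.8 and 147 CPM at P4 and 171, 179 and 139 CPM at P14 in SAN. RA libraries had 127, 135 and 194 CPM at E14.5, 161, 152 and 117 CPM at P4 and 138, 128 and 150 CPM at P14 of Tpi1. SAN exceeded RA at E14.5 by 0.80 ± 0.20 (limma, adjusted p = 0.0163), a call lost without RA E14.5 replicates 1 or 2 or SAN E14.5 replicates 1, 2 or 3 (adjusted p 0.0517 to 0.114) and under sarcomere scaling (adjusted p = 0.289). It was lower at P14 by −0.68 ± 0.20 in SAN (limma, adjusted p = 0.0146), a call lost without SAN E14.5 replicate 3 or SAN P14 replicate 3 (adjusted p 0.0521 to 0.0716) and with recomputed TMM factors (adjusted p = 0.0561), and had −0.11 ± 0.20 in RA. Pgk1, phosphoglycerate kinase, had 304, 274 and 302 CPM at E14.5, 108, 115 and 161 CPM at P4 and 148, 163 and 152 CPM at P14 in SAN. Pgk1 in RA had 169, 172 and 279 CPM at E14.5, 190.5, 177 and 166 CPM at P4 and 146, 197 and 122 CPM at P14. The difference was −0.92 ± 0.21 in SAN (limma, adjusted p = 0.00275) and −0.40 ± 0.21 in RA. Pkm2, the row for the muscle pyruvate kinase gene whose spliced forms the table does not separate, had 544, 592 and 640.3 CPM at E14.5, 407, 371 and 417 CPM at P4 and 327, 305 and 314 CPM at P14 in SAN. RA held 362, 362 and 486 CPM at E14.5, 303, 248 and 166 CPM at P4 and 275, 354 and 285 CPM at P14 of Pkm2. It fell by −0.90 ± 0.19 in SAN (limma, adjusted p = 0.00126) and had −0.40 ± 0.19 in RA, where it was lower at P4 than at E14.5 by −0.78 ± 0.19 (limma, adjusted p = 0.0122), a call lost without RA E14.5 replicate 3 or RA P4 replicate 3 (adjusted p 0.0854 to 0.0964). It was higher in SAN averaged over stages by 0.47 ± 0.11 (limma, adjusted p = 0.00578), a call lost under sarcomere scaling (adjusted p = 0.17), and at P4 by 0.78 ± 0.19 (limma, adjusted p = 0.0137), lost without RA P4 replicate 3 (adjusted p = 0.107) and under sarcomere scaling (adjusted p = 0.168).

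Promoters of 4 members that show these patterns are printed as given by RefSeq on GRCm38.p6, each from 250 bases before to 50 bases after the gene start and 5′ to 3′ on the gene's own strand. Slc2a1 and Pgam1 fell in both tissues, Pdk4 rose in both, and Pgam2 is the sister gene of Pgam1 whose calls depended on the scaling. Capitals mark ACGTG, the core of the element bound by hypoxia-inducible factors, and GCGTG, its common variant, on either strand, so that CACGT and CACGC are the same letters read on the other strand.
Slc2a1 (chr4:119108495-119108794, + strand): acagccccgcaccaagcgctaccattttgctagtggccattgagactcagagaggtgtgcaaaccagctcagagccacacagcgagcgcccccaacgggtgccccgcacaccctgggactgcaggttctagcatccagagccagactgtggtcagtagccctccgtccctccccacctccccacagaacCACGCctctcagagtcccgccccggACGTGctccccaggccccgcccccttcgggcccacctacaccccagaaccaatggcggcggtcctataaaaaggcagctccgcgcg
Pgam1 (chr19:41911621-41911920, + strand): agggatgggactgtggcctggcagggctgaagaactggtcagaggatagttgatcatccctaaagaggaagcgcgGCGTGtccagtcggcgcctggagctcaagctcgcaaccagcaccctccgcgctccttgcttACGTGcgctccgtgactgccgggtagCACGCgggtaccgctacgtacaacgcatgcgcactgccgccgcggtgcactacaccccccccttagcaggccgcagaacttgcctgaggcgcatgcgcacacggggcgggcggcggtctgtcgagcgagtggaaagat
Pgam2 (chr11:5803747-5804046, - strand): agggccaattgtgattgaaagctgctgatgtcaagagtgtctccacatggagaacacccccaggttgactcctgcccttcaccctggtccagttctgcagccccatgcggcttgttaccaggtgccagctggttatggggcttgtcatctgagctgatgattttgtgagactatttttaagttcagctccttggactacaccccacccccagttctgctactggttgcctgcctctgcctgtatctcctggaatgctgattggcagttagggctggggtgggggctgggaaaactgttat
Pdk4 (chr6:5496229-5496528, - strand): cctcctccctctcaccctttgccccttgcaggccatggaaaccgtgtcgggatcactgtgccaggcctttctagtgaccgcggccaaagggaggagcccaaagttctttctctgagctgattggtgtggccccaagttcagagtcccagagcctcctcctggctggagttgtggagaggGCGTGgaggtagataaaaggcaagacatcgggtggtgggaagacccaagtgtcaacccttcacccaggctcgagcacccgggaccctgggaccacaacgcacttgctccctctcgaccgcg

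A promoter was found for 34 of the 36 genes, 54 promoters in all. ACGTG was present in 24 of the 54 (44.4%), against 19.6% of all 32851 mouse promoters of this length, and GCGTG in 29 (53.7%), against 32.4%. Of the 13 promoters of the 9 genes that fell in both tissues, 11 held ACGTG or GCGTG (84.6%). Of the 7 promoters found for 4 of the 5 genes that rose in both tissues, 6 did (85.7%). ACGTG alone was in 5 of those 13 (38.5%) and 3 of those 7 (42.9%), and GCGTG alone in 11 (84.6%) and 5 (71.4%). The promoters of Hk2, which rose in RA, and Pgk1, which fell in SAN, each held 2 ACGTG and are not printed. Among all 54 promoters of the members 39 held ACGTG or GCGTG (72.2%), and all mouse promoters gave 43.8%. A match is a description of these letters and not a bound site.

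Lactate dehydrogenase and the monocarboxylate carriers link the pathway to lactate. Ldha, the form that favours lactate formation, had 546, 618 and 812 CPM at E14.5, 219, 165 and 382 CPM at P4 and 274, 266 and 272 CPM at P14 in SAN. RA levels of Ldha were 357, 331 and 469 CPM at E14.5, 450.2, 403 and 326 CPM at P4 and 331, 565 and 339.7 CPM at P14. All SAN libraries after birth lay below all SAN libraries at E14.5, and in RA the P14 libraries overlapped with those at E14.5. The log2 difference at P14 was −1.26 ± 0.25 in SAN (limma, adjusted p = 0.000849) and 0.06 ± 0.25 in RA (limma, adjusted p = 0.885). Ldhb, the heart form, had 456, 397 and 393 CPM at E14.5, 474, 471 and 337 CPM at P4 and 346, 378 and 349.7 CPM at P14 in SAN. Ldhb in RA had 350.4, 332 and 361 CPM at E14.5, 372, 387 and 296 CPM at P4 and 312, 565 and 341 CPM at P14. It was called in none of the 12 contrasts.

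Slc16a1 encodes MCT1, the carrier that exchanges lactate and pyruvate in heart. SAN levels of Slc16a1 were 40.3, 74.3 and 60.3 CPM at E14.5, 51, 26.96 and 40.3 CPM at P4 and 38.5, 55.8 and 62.02 CPM at P14. RA levels of Slc16a1 were 121, 112 and 155 CPM at E14.5, 45.7, 68.3 and 106 CPM at P4 and 97.2, 62.5 and 94.4 CPM at P14. It was lower in SAN averaged over stages by −0.90 ± 0.18 (limma, adjusted p = 0.00142), and at E14.5 by −1.17 ± 0.31 (limma, adjusted p = 0.0269), a call lost without RA E14.5 replicates 1, 2 or 3 or SAN E14.5 replicates 1 or 3 (adjusted p 0.0524 to 0.179). The E14.5 call was also lost with recomputed TMM factors (limma, adjusted p = 0.0538) and edgeR (adjusted p = 0.0815). Emb, which encodes a membrane partner of carriers of this family, was lower in SAN as well, by −2.07 ± 0.45 (limma, adjusted p = 0.00302). Emb is 1 of 5 listed lactate and monocarboxylate partner genes, and in SAN at P4 it had only 0.2753, 0.1003 and 0.4351 CPM. Bsg, another of the list, overlapped between the tissues, from 241.2 to 421.7 CPM in SAN and from 185.3 to 564.7 CPM in RA. Slc16a3 encodes MCT4, the lactate exporter of glycolytic cells, and had 9.47, 2.03 and 25.6 CPM at E14.5, 0.367, 5.31 and 9.83 CPM at P4 and 0.0818, 0.7996 and 2.001 CPM at P14 in SAN. RA held 5.41, 12.7 and 15.3 CPM at E14.5, 3.66, 3.56 and 0 CPM at P4 and 3.504, 4.54 and 2.36 CPM at P14 of Slc16a3. It was lower in SAN at P14 than at E14.5 by −2.39 ± 0.79 (limma, adjusted p = 0.0311), with no overlap between the stages, and the call was lost without SAN E14.5 replicates 1 or 3 or SAN P14 replicates 1 or 2 (adjusted p 0.0656 to 0.177). The 0.0818 CPM in SAN P14 replicate 1 is 1 read, under the limit of 3 reads (0.246 CPM). Over the alternatives this difference ran from −3.455 to −1.646.

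The Pdk kinases switch off pyruvate dehydrogenase, and their genes moved in opposite directions. Pdk4, the form induced by fasting and fatty acids, had 45.7, 53.4 and 53.9 CPM at E14.5, 240, 174 and 102 CPM at P4 and 170.5, 294 and 179.7 CPM at P14 in SAN. RA levels of Pdk4 were 71.2, 55.3 and 46.7 CPM at E14.5, 103, 116 and 107 CPM at P4 and 151, 169 and 132 CPM at P14. Within each tissue, every library at P4 and P14 exceeded every library at E14.5. The log2 difference at P14 was 2.01 ± 0.26 in SAN and 1.38 ± 0.26 in RA (limma, adjusted p = 8.54e-06 and 0.000527). Pdk1, a form induced by low oxygen, had 82.1, 139 and 192 CPM at E14.5, 53.2, 61.6 and 44.6 CPM at P4 and 40.4, 35.3 and 30.1 CPM at P14 in SAN. Pdk1 in RA had 90.3, 140.2 and 133 CPM at E14.5, 122, 95.7 and 137 CPM at P4 and 55.5, 77.4 and 49.03 CPM at P14. In SAN it was low by P4, while in RA the P4 libraries overlapped with those at E14.5. It fell by −1.86 ± 0.28 in SAN and −0.99 ± 0.28 in RA (limma, adjusted p = 3.64e-05 and 0.0126), and the RA call was lost without RA E14.5 replicates 2 or 3 or RA P14 replicate 3 (adjusted p 0.0513 to 0.0623) and with recomputed TMM factors (adjusted p = 0.146). At P4 SAN lay below RA by −1.13 ± 0.28 (limma, adjusted p = 0.0137), a call lost without RA P4 replicate 3 (adjusted p = 0.0709), and averaged over stages by −0.58 ± 0.16 (limma, adjusted p = 0.0179).

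Pdk3, a broadly expressed kinase of the same family, had 42.95, 34.8 and 41.9 CPM at E14.5, 20.6, 16.4 and 45.9 CPM at P4 and 10.2, 9.33 and 20.6 CPM at P14 in SAN. RA held 96.2, 64.7 and 69.3 CPM at E14.5, 39.6, 31.5 and 15.1 CPM at P4 and 14.16, 35.5 and 32.9 CPM at P14 of Pdk3. It was lower at P14 by −1.59 ± 0.42 in SAN and −1.52 ± 0.42 in RA (limma, adjusted p = 0.00805 and 0.0114), the RA call being lost without RA E14.5 replicate 1 or RA P14 replicate 1 (adjusted p 0.0596 to 0.0838) and with recomputed TMM factors (adjusted p = 0.0567). Pdk2, the form most common across tissues, was called in none of the contrasts, but at P14 against E14.5 in RA recomputed TMM factors gave a called 0.80 (limma, adjusted p = 0.0259) where the difference was 0.43. Pdk2 had 204, 182 and 227 CPM at E14.5, 387, 237 and 188 CPM at P4 and 300.3, 304 and 207 CPM at P14 in SAN. Pdk2 in RA had 192, 243 and 122 CPM at E14.5, 228, 207 and 276 CPM at P4 and 243, 208 and 275 CPM at P14. Pdha1, the catalytic subunit that the kinases act on, had 117, 120 and 131 CPM at E14.5, 194, 169 and 160.1 CPM at P4 and 159.9, 219 and 231 CPM at P14 in SAN. RA levels of Pdha1 were 134, 122 and 146 CPM at E14.5, 186, 147 and 122 CPM at P4 and 218, 233 and 211 CPM at P14. It rose by 0.71 ± 0.19 in SAN and 0.72 ± 0.19 in RA (limma, adjusted p = 0.00719 and 0.00728), and the RA call was lost under sarcomere scaling (adjusted p = 0.539). Among 10 other genes of pyruvate entry, 3 rose in SAN and 5 in RA and 0 were called lower by limma, where 9.74% of all genes were higher in SAN and 5.99% in RA. Brp44l, a subunit of the mitochondrial pyruvate carrier, rose by 1.24 in SAN and 1.77 in RA, and Dlat, another subunit of the complex, by 0.88 in SAN and 1.000 in RA.

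The Pfkfb enzymes make and break the sugar phosphate that switches phosphofructokinase on. Pfkfb1, the liver and muscle form, had 7.66, 4.93 and 5.32 CPM at E14.5, 4.22, 2.004 and 2.96 CPM at P4 and 0.409, 0.933 and 1.84 CPM at P14 in SAN. RA levels of Pfkfb1 were 11.7, 7.18 and 8.02 CPM at E14.5, 5.798, 7.23 and 7.32 CPM at P4 and 2.63, 3.65 and 4.87 CPM at P14. It was lower in SAN averaged over stages by −0.90 ± 0.26 (limma, adjusted p = 0.0255), a call lost without RA E14.5 replicate 1, RA P14 replicate 3, SAN E14.5 replicate 2 or SAN P14 replicate 1 (adjusted p 0.0521 to 0.0652). It fell in SAN at P14 by −1.80 ± 0.45 (limma, adjusted p = 0.00537) and had −1.08 ± 0.45 in RA. Pfkfb2, the heart form, had 29.1, 47.4 and 54.4 CPM at E14.5, 40.5, 43 and 53.2 CPM at P4 and 35.7, 87.4 and 91.2 CPM at P14 in SAN. Pfkfb2 in RA had 41.05, 79.8 and 46.9 CPM at E14.5, 95.2, 75.8 and 81.99 CPM at P4 and 96.1, 209 and 133 CPM at P14. It was lower in SAN averaged over stages by −0.76 ± 0.20 (limma, adjusted p = 0.0131), and it rose in RA at P14 by 1.36 ± 0.34 (limma, adjusted p = 0.00632), a call lost without RA P14 replicate 2 (adjusted p = 0.0511) and under sarcomere scaling (adjusted p = 0.0874).

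Pfkfb3, the inducible form found in proliferating cells, was lowest in SAN at P4. SAN levels of Pfkfb3 were 15.2, 13.1 and 38.9 CPM at E14.5, 5.69, 1.604 and 7.39 CPM at P4 and 27.9, 15.5 and 19.3 CPM at P14. RA levels of Pfkfb3 were 15.1, 30.03 and 23.96 CPM at E14.5, 18.7, 18.02 and 12.5 CPM at P4 and 16.1, 24.1 and 15.9 CPM at P14. The 3 SAN libraries at P4 lay below all other 15 libraries. At P4 SAN was lower than RA by −1.70 ± 0.47 (limma, adjusted p = 0.0291), a call lost without RA P4 replicates 1 or 2 or SAN P4 replicate 2 (adjusted p 0.0886 to 0.177) and with edgeR on the recovered reads (adjusted p = 0.0708). In SAN it fell at P4 against E14.5 by −1.99 ± 0.47 (limma, adjusted p = 0.00957), lost without SAN E14.5 replicate 3 or SAN P4 replicate 2 (adjusted p 0.0679 to 0.0725), and was higher at P14 than at P4 by 2.02 ± 0.47 (limma, adjusted p = 0.013), lost without SAN P14 replicate 1 or SAN P4 replicate 2 (adjusted p 0.0662 to 0.077).

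Glycogen phosphorylase, which releases glucose from glycogen, rose in its brain form in both tissues and in its muscle form in RA only. Both forms were higher in SAN than in RA when averaged over the 3 stages. Pygb, the brain form, had 237, 281 and 213 CPM at E14.5, 491, 472 and 335 CPM at P4 and 438, 358 and 439.6 CPM at P14 in SAN. RA levels of Pygb were 181, 189 and 200 CPM at E14.5, 257, 237 and 154 CPM at P4 and 358, 332 and 355 CPM at P14. It rose at P14 by 0.76 ± 0.19 in SAN and 0.87 ± 0.19 in RA (limma, adjusted p = 0.00595 and 0.00216), the RA call being lost under sarcomere scaling (adjusted p = 0.161), and SAN exceeded RA at P4 by 1.01 ± 0.19 (limma, adjusted p = 0.00158). Pygm, the muscle form, had 269.5, 255 and 217 CPM at E14.5, 296, 299.7 and 184 CPM at P4 and 221, 200.2 and 218 CPM at P14 in SAN. Pygm in RA had 145, 148 and 103 CPM at E14.5, 197, 156 and 141 CPM at P4 and 217, 262 and 233 CPM at P14. All SAN libraries at E14.5 exceeded all RA libraries at E14.5, by 0.91 ± 0.20 in log2 difference (limma, adjusted p = 0.00733), a call lost without RA E14.5 replicate 3 (adjusted p = 0.053) and under sarcomere scaling (adjusted p = 0.0685). Pygm rose in RA by 0.86 ± 0.20 (limma, adjusted p = 0.00365) and had −0.21 ± 0.20 in SAN. The RA call was lost under sarcomere scaling (adjusted p = 0.184). Averaged over stages SAN exceeded RA by 0.53 ± 0.11 for Pygb and 0.46 ± 0.12 for Pygm (limma, adjusted p = 0.00219 and 0.0101), and the Pygm call was lost under sarcomere scaling (adjusted p = 0.0975).

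Gys1, the muscle glycogen synthase, had 64.4, 85.6 and 106 CPM at E14.5, 50.8, 35.4 and 85.6 CPM at P4 and 75.2, 72.8 and 43.6 CPM at P14 in SAN. RA held 93.8, 89.5 and 92.8 CPM at E14.5, 49.4, 41.8 and 47.8 CPM at P4 and 42.1, 46.7 and 47.1 CPM at P14 of Gys1. It fell in RA by −1.01 ± 0.28 (limma, adjusted p = 0.0117), a call lost with recomputed TMM factors (adjusted p = 0.121), and had −0.42 ± 0.28 in SAN. Gbe1, the branching enzyme, had 47.9, 55.4 and 64.9 CPM at E14.5, 57.3, 34.5 and 31.8 CPM at P4 and 23.7, 42.9 and 34.2 CPM at P14 in SAN. RA levels of Gbe1 were 50.9, 61.2 and 65.02 CPM at E14.5, 71.5, 50.1 and 77.04 CPM at P4 and 55.05, 66.5 and 60.2 CPM at P14. It was lower in SAN averaged over stages by −0.55 ± 0.16 (limma, adjusted p = 0.0235), a call lost without SAN E14.5 replicate 1 or SAN P14 replicate 1 (adjusted p 0.0529 to 0.053). In SAN it was lower at P14 by −0.75 ± 0.27 (limma, adjusted p = 0.047), lost without SAN E14.5 replicates 1, 2 or 3 or SAN P14 replicates 1 or 3 (adjusted p 0.0581 to 0.212) and with recomputed TMM factors (adjusted p = 0.126). Ugp2, which makes the activated glucose that glycogen is built from, stayed between 132 and 224 CPM in all 18 libraries and was called in none of the contrasts. Of 20 other glycogen genes, 1 rose and 6 fell in SAN and 2 rose and 6 fell in RA, where 14.5% of all genes were lower in SAN and 16.7% in RA. Gyg, the primer protein glycogenin, fell by a log2 difference of −1.997 in SAN and −1.95 in RA, Pygl, the liver phosphorylase, by −2.68 in SAN and −2.69 in RA, and Stbd1, a glycogen-binding protein, by −3.005 in SAN and −3.53 in RA.

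Compared per kilobase of exon (GENCODE M21 lengths, a later annotation than that of the table), Gapdh was the most abundant of the 36 in each of the 6 groups, at 4097, 1983 and 1659 CPM per kb in SAN and 4232, 1769 and 1860 CPM per kb in RA at E14.5, P4 and P14. Pgam2 ranked next in 5 groups, and in SAN at P14 Ldhb stood between them. Slc2a4 exceeded Slc2a1 at P14 on this scale, with 23.0 against 6.14 CPM per kb in SAN and 30.1 against 7.80 CPM per kb in RA, while at E14.5 the values were 10.3 against 62.1 in SAN and 7.26 against 78.0 in RA. The 36 genes together held a median of 13901, 8820 and 8002 CPM in SAN at E14.5, P4 and P14, and 12522, 7865 and 8270 CPM in RA. Without Gapdh these medians were 7570.4, 5625.6 and 5402.1 CPM in SAN and 5664.5, 5110 and 5429.3 CPM in RA.

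The ratio of 2 genes within 1 library does not depend on how libraries are scaled. The following log2 ratios of CPM are means of 3 libraries with SD, not corrected for length, and are given as descriptions without a test. Slc2a4 over Slc2a1 was −2.85 ± 0.21, −0.76 ± 0.44 and 1.57 ± 0.72 in SAN at E14.5, P4 and P14, and −3.64 ± 0.35, 1.01 ± 0.15 and 1.75 ± 0.78 in RA. At P4 the carrier ratio was above 0 in all RA libraries and below 0 in all SAN libraries. Eno3 over Eno1 was −0.76 ± 0.21, 1.01 ± 0.47 and 1.01 ± 0.23 in SAN and −1.39 ± 0.48, 0.28 ± 0.12 and 1.12 ± 0.22 in RA. Pgam2 over Pgam1 was −0.73 ± 0.22, 0.28 ± 0.41 and −0.05 ± 0.15 in SAN and −0.98 ± 0.30, 0.79 ± 0.40 and 1.67 ± 0.45 in RA. In SAN all 3 mutase ratios at P14 lay below the lowest RA library at P14 (1.35).

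Pfkm over Pfkp was −0.35 ± 0.07, 1.55 ± 0.64 and 1.87 ± 0.17 in SAN and −0.56 ± 0.33, 1.32 ± 0.64 and 1.94 ± 0.36 in RA. Pdk4 over Pdk1 was −1.35 ± 0.50, 1.62 ± 0.50 and 2.57 ± 0.49 in SAN and −1.07 ± 0.63, −0.11 ± 0.34 and 1.33 ± 0.18 in RA, with the SAN libraries above the RA libraries at P4 and P14. Ldhb over Ldha was −0.65 ± 0.39, 0.82 ± 0.89 and 0.40 ± 0.09 in SAN and −0.14 ± 0.21, −0.16 ± 0.11 and −0.03 ± 0.05 in RA. The lowest SAN library at P4 had a lactate dehydrogenase ratio of −0.18. Pygm over Pygb was 0.02 ± 0.16, −0.75 ± 0.11 and −0.95 ± 0.09 in SAN and −0.54 ± 0.35, −0.37 ± 0.23 and −0.56 ± 0.19 in RA.

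**Figure D4:**
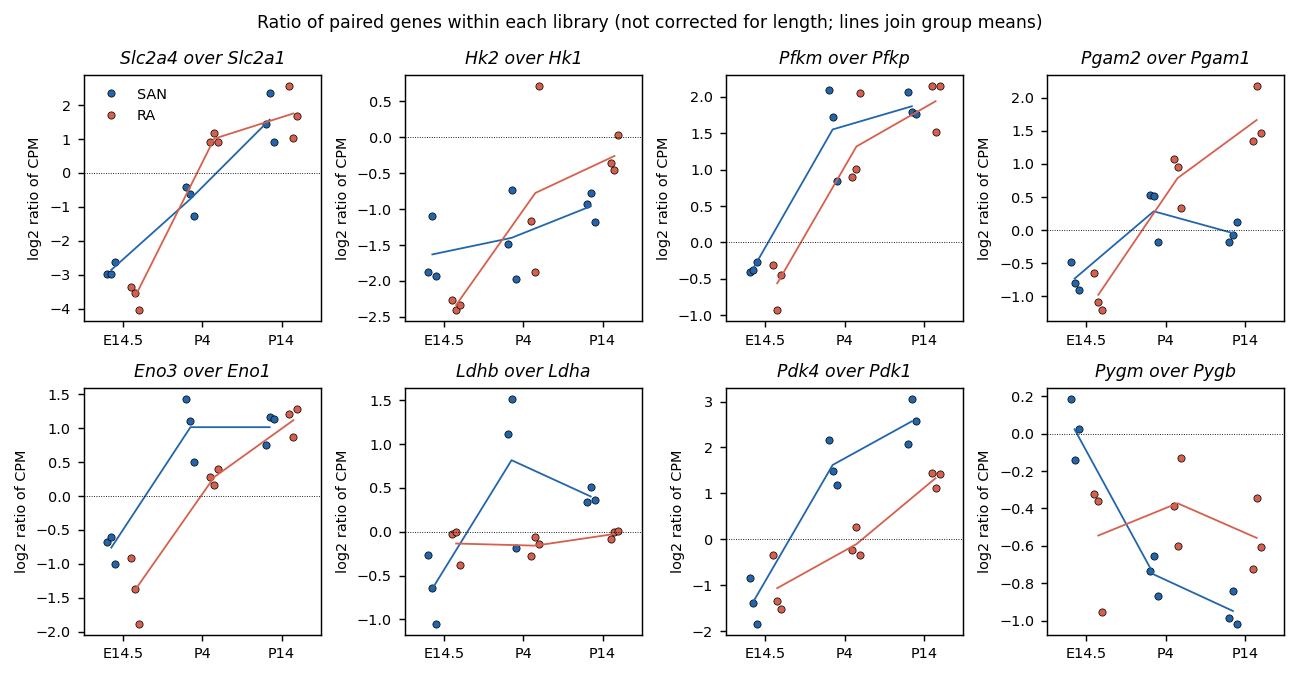
Log2 ratio of the CPM of 2 genes within each library (y axis) at E14.5, P4 and P14 (x axis), for 8 pairs, in SAN (blue, left) and RA (red, right). Points are libraries, lines join group means of 3, and the dotted line is a ratio of 1. The Slc2a4 over Slc2a1 ratio crosses the dotted line in both tissues, Pgam2 over Pgam1 separates the tissues at P14, and Ldhb over Ldha moves in SAN while it stays near 0 in RA.

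Whether the change between E14.5 and P14 differed between the tissues was tested for each gene as the SAN change minus the RA change. Pgam2 was the only member called, with 2.27% of all genes called, and its difference was −1.19 ± 0.29 (limma, adjusted p = 0.0288). All 3 SAN libraries at P14 lay below those at E14.5, and in RA the stages overlapped. The call was lost without RA E14.5 replicates 1 or 2, RA P14 replicates 2 or 3, SAN E14.5 replicates 1 or 2 or SAN P14 replicates 1, 2 or 3 (adjusted p 0.0531 to 0.0878) and under sarcomere scaling (adjusted p = 0.148). Pygm (−1.06 ± 0.29, adjusted p = 0.0519), Hk2 (−1.75 ± 0.47, adjusted p = 0.0528) and Ldha (−1.32 ± 0.36, adjusted p = 0.0528) missed the threshold in limma, as did Eno3 (−0.86 ± 0.27, adjusted p = 0.0898). With equal upper quartiles Pygm, Hk2, Ldha and Eno3 were called too, with adjusted p = 0.0242, 0.0333, 0.0287 and 0.0487 in limma. For all 36 genes the median of this difference was −0.45, beside 0.18 over all genes tested, a median that moved to 0.03 with equal upper quartiles and 0.55 with sarcomere scaling, and both sides of it share the same libraries as the contrasts above.

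The step to P4 and the step to P14 were also tested apart. In SAN 3 members were higher and 11 lower at P4 than at E14.5, with 8.24% of all genes called, 3.85% higher and 4.39% lower. In RA 3 were higher and 8 lower, with 6.79% called, 3.23% higher and 3.56% lower. Pfkm rose and Slc2a1, Gapdh, Pgam1 and Eno1 fell in both tissues over this step, under every alternative run. Pdk4 rose and Aldoc fell in both as well. The Pdk4 call in RA was lost without RA E14.5 replicates 2 or 3 or RA P4 replicates 1, 2 or 3 (adjusted p 0.0624 to 0.158) and under sarcomere scaling (adjusted p = 0.167). The Aldoc call was lost with edgeR (adjusted p = 0.285 in SAN and 0.289 in RA) and DESeq2 (adjusted p = 0.204 in SAN and 0.147 in RA), in SAN without SAN E14.5 replicate 1 or SAN P4 replicate 3 (adjusted p 0.0573 to 0.0721) and in RA without RA E14.5 replicates 1, 2 or 3 or RA P4 replicates 2 or 3 (adjusted p 0.0538 to 0.162). From P4 to P14 only Slc2a1 (lower) and Pfkfb3 (higher) were called in SAN, with 5.59% of all genes called, 2.68% higher and 2.91% lower. In RA only Pdk1 (−0.96, limma adjusted p = 0.0397) and Pygb (0.72, limma adjusted p = 0.028) were, with 6.76% called, 1.34% higher and 5.42% lower. The Pdk1 call was lost without RA P14 replicates 1 or 3 or RA P4 replicates 1 or 3 (adjusted p 0.092 to 0.133) and the Pygb call without RA P14 replicates 1, 2 or 3 or RA P4 replicate 3 (adjusted p 0.0594 to 0.142). Recomputed TMM factors (limma, adjusted p = 0.221), equal upper quartiles (limma, adjusted p = 0.21), edgeR (adjusted p = 0.273) and DESeq2 (adjusted p = 0.228) also lost the Pdk1 call. Sarcomere scaling (limma, adjusted p = 0.0609) also lost the Pygb call. For the step to P4 in RA, 7 members were called without RA E14.5 replicate 2, 5 without RA E14.5 replicate 3, 6 without RA P4 replicate 2 and 7 without RA P4 replicate 3, in place of 11. Over all genes the calls in these fits were 865, 766, 909 and 788, in place of 1193. From P4 to P14 in RA, recomputed TMM factors gave 4 members higher and 0 lower by limma. Over all genes they gave 431 higher and 297 lower, in place of 236 and 952.

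Other lists of the pathway were counted at P14 against E14.5, where 24.3% of all genes were called in SAN and 22.7% in RA. Of 25 regulators of glucose use, 6 rose and 3 fell in SAN, and 8 rose and 2 fell in RA. Epas1, a hypoxia-inducible factor, rose by 3.18 ± 0.21 in SAN and 1.51 ± 0.21 in RA (limma, adjusted p = 8.57e-10 and 2.11e-05), and Thrb, the thyroid hormone receptor beta, by 3.75 ± 0.59 in SAN and 1.64 ± 0.59 in RA. Tbc1d1, which holds GLUT4 inside the cell until it is phosphorylated, rose by 1.45 in SAN and 2.68 in RA and was lower in SAN than in RA averaged over stages by −1.35 ± 0.21 (limma, adjusted p = 9.81e-05). Its relative Tbc1d4 was lower in SAN by −0.90 ± 0.13 (limma, adjusted p = 4.62e-05). Of 14 targets of hypoxia-inducible factors outside glucose metabolism, 2 rose and 1 fell in SAN and 4 rose and 5 fell in RA. Of 13 tested other glucose carriers and glycolytic enzymes 1 fell in each tissue, and of 8 genes of the pentose phosphate pathway 1 fell in each.

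Markers of other cells moved with stage too. All 10 cell cycle genes were lower at P14 than at E14.5 in both tissues, where 14.5% of all genes were called lower in SAN and 16.7% in RA. Summed fibroblast markers ran from 18691 to 21588 CPM in SAN at P14 against 2757 to 5354 CPM at E14.5, and from 8373 to 10572 CPM in RA at P14 against 2300 to 2866 CPM at E14.5, with none of the 8 genes at 0. Macrophage markers summed to 277 to 453 CPM in SAN at P14 against 25.3 to 51.5 CPM at E14.5, with none of 7 at 0. Endothelial markers were lower in SAN, with 5 of 7 genes called over the 3 stages and a sum of 454 to 745 CPM in SAN against 1410 to 1833 CPM in RA at E14.5. Over the 3 stages 5.36% of all genes were called lower in SAN. Smooth muscle and pericyte markers summed to 2886 to 3617 CPM in SAN at P14 against 628 to 787 CPM at E14.5, and to 666 to 1063 CPM in RA at P14 against 277 to 563 CPM at E14.5. At P14, 4 of these 6 genes were higher in SAN than in RA, where 3.21% of all genes were called higher. At P4 their sum in SAN ran from 580.2 to 3089 CPM, with a median of 829.6 CPM. Erythroid markers summed to 38.3 to 264 CPM in RA at E14.5 against 9.89 to 19.0 CPM at P14. In SAN the erythroid sums overlapped, with 17.4 to 52.9 CPM at E14.5 and 8.00 to 42.6 CPM at P14. The part of these cells in the results was not tested.

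Near-identical copies of 4 members are listed in the table and could take reads from them. Gm5506, a copy of Eno1, held 28.0% of the summed level at P14 and 27.0% at E14.5 in SAN, and its change in SAN was −1.92 where that of Eno1 was −2.003. The sum of Pgam1 and its 2 pseudogenes changed by −1.38 in SAN and −2.25 in RA, where Pgam1 alone gave −1.43 and −2.19. The sum of Pgk1 and Pgk1-rs7 changed by −0.93 in SAN and −0.44 in RA, and Ldha-ps2 held at most 0.144% of the Ldha sum. The libraries carry no strand information, so reads from genes that overlap a member on either strand cannot be told apart from its own.

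In the E12.5 set the glucose genes of the node were compared between libraries labelled CrePos and CreNeg. Slc2a1 was the only one of the 36 called by limma, and it was higher in the libraries labelled CrePos. The label could not be checked on its target: Isl1 stood at 71.7, 2.85 and 53.9 CPM in the libraries labelled CrePos and at 67.4, 88.5, 47.8 and 83.2 CPM in CreNeg, with a log2 difference of −0.16 ± 0.28 (limma, adjusted p = 0.734), and the labels do not say which part of the gene is floxed. CrePos replicate 2, with the lowest Isl1, is marked as an outlier in its title and was left out of the test. Hcn4 had 108, 36.7 and 81.2 CPM in the libraries labelled CrePos and 215, 214, 223 and 247 CPM in CreNeg, a log2 difference of −1.25 ± 0.22 (limma, adjusted p = 0.00513).

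Slc2a1 stood at 286, 160.1 and 282 CPM in the 3 libraries labelled CrePos and at 127, 92.1, 123 and 192 CPM in CreNeg. Replicates 1 and 3 of CrePos lay above all CreNeg libraries, and replicate 2 lay within their range. The log2 difference was 1.13 ± 0.26 (limma, adjusted p = 0.0361, 2 against 4 libraries), and 2% of the 14595 genes tested were called, 0.678% higher. The call was lost without CreNeg replicate 2 or CrePos replicates 1 or 3 (adjusted p 0.0725 to 0.479), where the difference stayed at 0.97 to 1.14. Leaving out either CrePos library leaves 1 in that group, which is then assumed to vary like the CreNeg libraries. The call was also lost with CrePos replicate 2 included (adjusted p = 0.108), with no filter (0.224), with edgeR (0.0501) and under sarcomere scaling (adjusted p = 0.066). The median of all genes was −0.42 in this contrast and −0.01 with recomputed TMM factors, so that Slc2a1 stood 1.55 above it, and the median of the 36 genes was 0.19. With recomputed TMM factors Pdk3 was called too (log2 difference 1.27, limma adjusted p = 0.0281), where its values were 37.7, 48.7 and 35.5 CPM in the libraries labelled CrePos and 24.3, 16.2, 19.2 and 23.6 CPM in CreNeg.

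The other 34 genes were not called under either scaling, and DESeq2 on the recovered reads called 11 of the 36 higher, where it called 661 of all 14595 genes, 358 higher and 303 lower. Pdk1 had 187, 89.1 and 137 CPM in the libraries labelled CrePos and 115, 59.9, 84.6 and 163 CPM in CreNeg, a log2 difference of 0.69 ± 0.32. Differences of the uncalled genes ran from −1.02 for Pfkfb1 to 0.95 for Slc16a3. Esrrg, a nuclear receptor that drives oxidative metabolism in heart, was the only 1 of 24 tested regulators called, and it was lower by −1.47 ± 0.25 (limma, adjusted p = 0.00403). Fibroblast markers summed to 864 and 1409 CPM in the 2 tested libraries labelled CrePos against 1899 to 4252 CPM in CreNeg, with 4 of 8 genes called lower, and the ventricular sum was 3834 CPM in CrePos replicate 2 against 763 to 848 CPM in CreNeg. Working atrium markers summed to 291 and 420.4 CPM in the 2 tested libraries labelled CrePos against 25.4 to 107 CPM in CreNeg, with 3 of 5 tested genes called higher. SAN identity markers summed to 829 and 1000.01 CPM in the libraries labelled CrePos against 2009 to 2140.1 CPM in CreNeg, with 4 of 7 genes called lower. In this contrast 0.678% of all genes tested were called higher and 1.32% lower. The part of these marker shifts in the Slc2a1 difference was not tested.

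**Figure D5:**
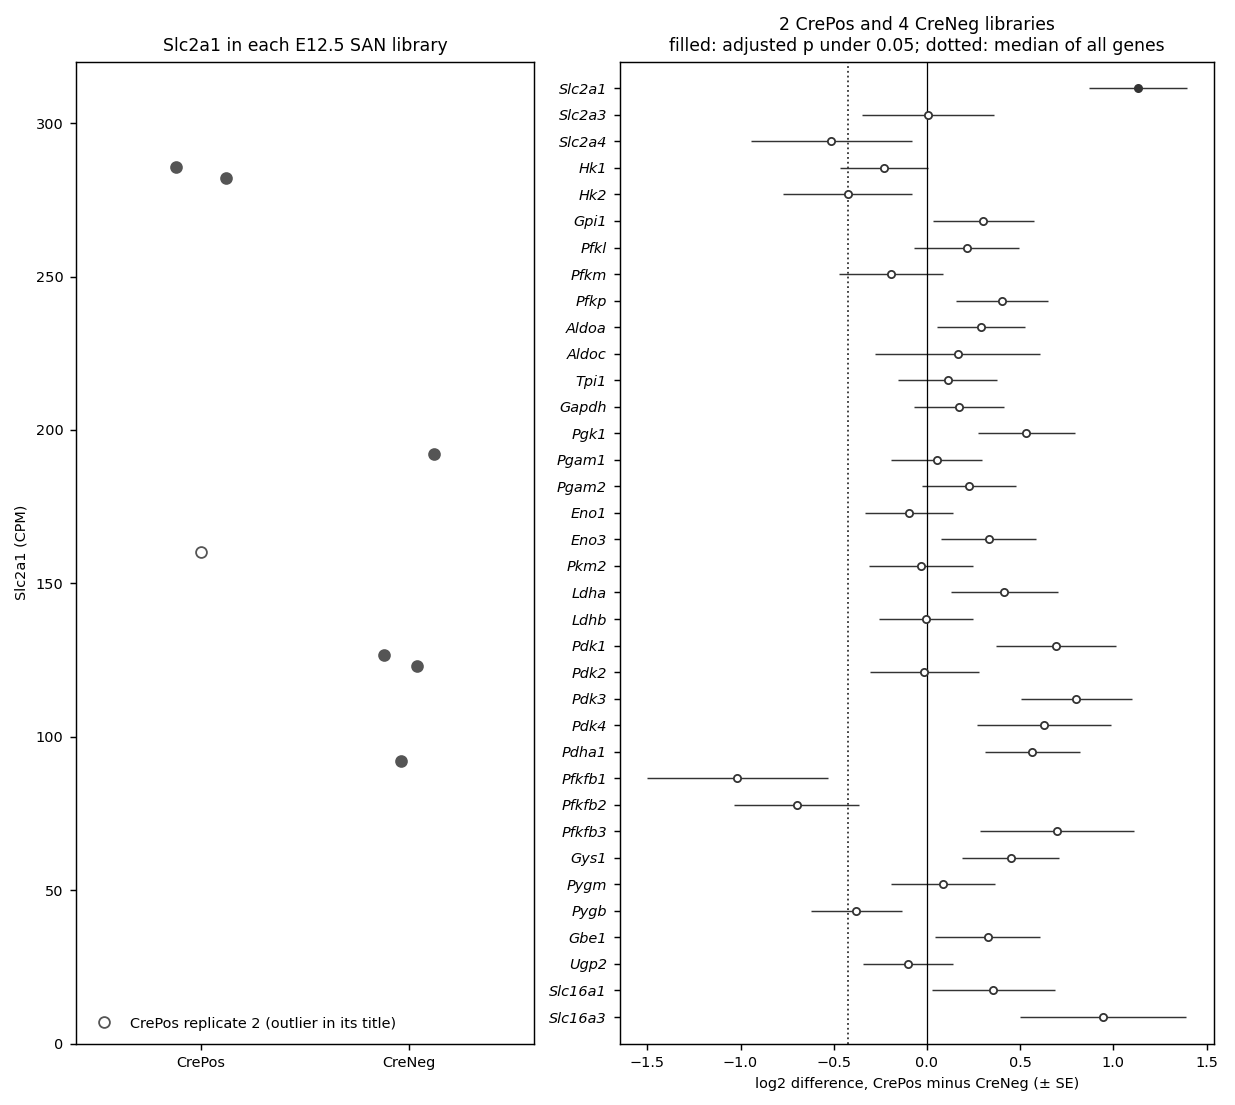
Left, Slc2a1 in CPM (y axis, from 0) in each E12.5 SAN library labelled CrePos or CreNeg, with the library marked as an outlier drawn open. Right, log2 difference of each of the 36 genes in 2 CrePos libraries relative to 4 CreNeg libraries (x axis, with SE), where the filled point is called and the dotted line is the median of all genes tested. Slc2a1 is the only filled point.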

How the data were processed

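RNA was measured in 25 libraries of laser-captured tissue. The submitters' processing notes name TopHat2 2.0.6, edgeR and the build mm8. The deposited unit is a signal: within each library the authors' values are whole reads divided by 1 factor (tolerance 0.1 read), so whole reads could be recovered (100.0% of values whole). On them edgeR called 3671 genes in SAN and 2715 in RA between P14 and E14.5. The deposited values were divided by 24.3 to give CPM, and no column was left unused. A count of 0 allows up to 3 reads, and such limits cover counting error only. Genes with at least 1 CPM in 3 libraries (2 in the Isl1 set) were tested with limma 3.58.1 (R 4.3.3) on log2(CPM + 1), with the prior variance following expression level, on 6 group means over 18 libraries. The Isl1 set was fitted apart without CrePos replicate 2. P-values were adjusted by Benjamini-Hochberg over all genes tested, and all 36 genes passed the filter. The code was tested on simulated data.

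Values in every library are given for members called in the average SAN against RA contrast, between P14 and E14.5 or in the Isl1 set, and for sister genes; other lists are given by counts and up to 4 genes. Members and lists were chosen with earlier results of these data known. Alternatives were recomputed TMM factors, equal upper quartiles, scaling to 16 sarcomere genes, a pseudocount of 0.25, no filter and a filter of 5 CPM, edgeR 4.0.16 and DESeq2 1.42.0 on recovered reads, a replicate block, fits of 2 groups only, CrePos replicate 2 included, and each library left out.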

Additional observations from a re-analysis of the deposited data

Results flagged for a closer look

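In the limma fit, Pgam2, the muscle phosphoglycerate mutase, was the only member called for a tissue difference in its change between E14.5 and P14. The SAN change minus the RA change was −1.19 (limma, adjusted p = 0.0288). The call was lost when any of 9 of the 12 libraries at these stages was left out (adjusted p 0.0531 to 0.0878). Over all genes tested, 2.27% were called in this contrast, and whether the members differ from that share was not tested. The number of members called was 5 with recomputed TMM factors, equal upper quartiles or DESeq2. It was 4 with edgeR or a filter of 5 CPM, and 0 with sarcomere scaling.

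Among the 4 CreNeg libraries, 3 of the 36 genes had a highest value set far apart from the others. Aldoc reached 25.6 CPM in CreNeg replicate 4, Pdk4 reached 27.7 CPM in CreNeg replicate 3 and Pfkfb2 reached 39.0 CPM in CreNeg replicate 3. Chance flags about 1 in 20 groups in such a check, and 36 genes were checked.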

How the results depend on the processing

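Over the 100 gene and contrast pairs called among the 36 genes, 51 kept their call under every alternative run and 49 lost it under at least 1. Calls lost were 12 of 100 with recomputed TMM factors, 9 with equal upper quartiles, 22 with sarcomere scaling, 4 with a pseudocount of 0.25, 9 with no filter, 0 with a filter of 5 CPM, 20 with edgeR, 12 with DESeq2 and 10 of 86 with 2 groups only, and no called value changed sign. Under sarcomere scaling 3 uncalled differences at P14 against E14.5 in RA turned to −0.28 for Aldoa, −0.13 for Pdk2 and −0.12 for Pgam2, from 0.27, 0.43 and 0.44, while with recomputed TMM factors they were 0.65, 0.80 and 0.81 and called higher (limma, adjusted p = 0.015, 0.0259 and 0.0101), as they were with equal upper quartiles, edgeR and DESeq2. The number of members called in SAN against RA was 2 at E14.5 with sarcomere scaling, 3 at P4 with 2 groups only, and at P14 3 with recomputed TMM factors or equal upper quartiles and 4 with DESeq2. For P14 against P4 it was 1 in SAN with 2 groups only, and in RA 4 with recomputed TMM factors, equal upper quartiles or edgeR, 9 with DESeq2, and 1 with sarcomere scaling, no filter or 2 groups only. For the difference between tissues in the stage change it was 5 with recomputed TMM factors, equal upper quartiles or DESeq2, 4 with a filter of 5 CPM or edgeR and 0 with sarcomere scaling. In the Isl1 set it was 2 with recomputed TMM factors or equal upper quartiles, 11 with DESeq2, and 0 with sarcomere scaling, no filter or CrePos replicate 2 included. The calls over all genes moved too. P14 against P4 in RA had 1188 as fitted above, 728 with recomputed TMM factors, 541 with edgeR and 1079 with DESeq2. In the same order the difference between tissues had 399, 405, 227 and 659, and the Isl1 set 292, 229, 126 and 661. Under sarcomere scaling these contrasts had 1794, 1056 and 280. The cause of these shifts was not tested. Leaving out 1 library gave 9 to 14 members for SAN against RA over stages, 3 to 6 at E14.5, 4 to 10 at P4 and 1 to 2 at P14, 19 to 21 in SAN and 16 to 18 in RA for P14 against E14.5, 11 to 14 in SAN and 5 to 8 in RA for P4 against E14.5, 1 to 3 in SAN and 0 to 2 in RA for P14 against P4, 0 to 2 for the difference between tissues and 0 to 1 in the Isl1 set. For P14 against E14.5 the calls over all genes then ran from 3168 to 3722 in SAN, in place of 4263. In RA they ran from 2887 to 3348, in place of 3988. Replicate numbers gave no sign of pairing: 2 of 9 same-numbered SAN and RA pairs had correlated deviations over 0.1 and 3 of 9 correlated best with their own number. With 3 libraries a group and a spread that may be technical, this cannot show whether same-numbered libraries shared an animal. With the replicate block 4 of 100 calls were lost, and 2 members were called at P14 in SAN against RA and 2 for the difference between tissues. In the shallowest of the 18 libraries levels under 0.646 CPM could not be told from 0.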
